A study of Mus musculus with 48 samples.

Results

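Liver mRNA of 5 secreted or released proteins, *Fgl1*, *Fetub*, *Ahsg*, *Lect2* and *Ctsd*, was followed over 8 groups of male mice. The members were all non-control array probes that carry 1 of these gene names, and each probe was read apart. This gave 6 probes for 5 of the 20486 genes kept, because *Fgl1* has 2 probes, and all 6 were well above background on all 48 arrays. All mice carried floxed p110α alleles (p110αflox/flox), the gene *Pik3ca*. The p110αhep-/- mice were also albumin-Cre+/−, so that recombination depends on a hepatocyte promoter, and their Cre-negative littermates were the p110αhep+/+ controls. From 12 weeks of age the mice ate a CTRL diet (D12450J) or a high fat diet (HFD, D12492, 60% of calories from fat) for 12 weeks. They were then fed *ad libitum* or fasted for 24 h and killed at Zeitgeber time (ZT) 16. Each of the 8 groups of genotype, diet and nutritional state had 6 arrays of whole liver RNA.

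Hepatokines are proteins that hepatocytes release into blood and that act on other tissues or on the liver itself. p110α is the catalytic subunit of the phosphoinositide 3-kinase that carries much of the insulin signal in hepatocytes, and feeding raises insulin while fasting lowers it. *Fgl1* encodes fibrinogen-like protein 1, a hepatocyte protein that also binds the immune checkpoint receptor LAG3. *Fetub* and *Ahsg* encode fetuin-B and fetuin-A, cystatin-related plasma proteins. Fetuin-B inhibits the zona protease ovastacin, and fetuin-A binds calcium phosphate and has been described as an inhibitor of the insulin receptor. *Lect2* encodes leukocyte cell-derived chemotaxin 2, a target of β-catenin in liver, and *Ctsd* encodes cathepsin D, an aspartic protease of lysosomes that can also be secreted.

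The positions of the probes on the mouse genome (mm9) were those of the scanner files. *Fgl1* probe 1 matched NM_145594 and lay at chr8:42276846-42276905 on the minus strand, and *Fgl1* probe 2 matched ENSMUST00000134510 at chr8:42283445-42283504. The *Fetub* probe lay at chr16:22939736-22939795 and the *Ahsg* probe at chr16:22899415-22899474, both on the plus strand. *Lect2* was read at chr13:56643950-56644009 and *Ctsd* at chr7:149561962-149562021, both on the minus strand. Whether a probe lies in a coding exon or in a UTR was not determined here. In the RefSeq gene order of GRCm38.p6, *Ahsg* and *Fetub* are neighbours on chromosome 16, followed by *Hrg*, *Kng2* and *Kng1*, which also encode cystatin-related plasma proteins.

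Promoters are shown for the 3 members whose mRNA differed by genotype in at least 3 of the 4 settings and that had an entry in the RefSeq promoter table (GRCm38.p6). Each runs 5′ to 3′ over the 250 bases before a transcript start, with matches to any of 6 short motifs in capitals. *Fetub* has 2 starts in the table.
Fetub promoter 1, chr16:22918132-22918381, plus strand: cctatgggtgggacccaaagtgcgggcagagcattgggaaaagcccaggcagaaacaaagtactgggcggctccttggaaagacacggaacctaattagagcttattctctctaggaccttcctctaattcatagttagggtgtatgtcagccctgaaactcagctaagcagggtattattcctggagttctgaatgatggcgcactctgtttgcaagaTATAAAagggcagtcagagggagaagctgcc
Fetub promoter 2, chr16:22919972-22920221, plus strand: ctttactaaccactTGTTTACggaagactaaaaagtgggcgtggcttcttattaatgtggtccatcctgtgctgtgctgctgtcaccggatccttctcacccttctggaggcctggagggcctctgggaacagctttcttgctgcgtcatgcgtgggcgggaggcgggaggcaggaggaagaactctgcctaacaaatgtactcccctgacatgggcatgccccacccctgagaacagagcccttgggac
Lect2, chr13:56548539-56548788, minus strand: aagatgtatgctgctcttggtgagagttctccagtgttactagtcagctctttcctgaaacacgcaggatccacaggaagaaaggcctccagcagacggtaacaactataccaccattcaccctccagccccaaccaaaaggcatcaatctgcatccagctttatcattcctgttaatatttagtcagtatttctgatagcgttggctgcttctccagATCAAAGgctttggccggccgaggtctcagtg
Ctsd, chr7:142387828-142388077, minus strand: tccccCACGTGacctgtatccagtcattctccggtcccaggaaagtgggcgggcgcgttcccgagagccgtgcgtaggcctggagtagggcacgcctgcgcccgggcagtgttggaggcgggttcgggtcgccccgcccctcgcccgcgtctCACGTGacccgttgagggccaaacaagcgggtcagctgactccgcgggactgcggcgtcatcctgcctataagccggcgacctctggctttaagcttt
The motifs searched on both strands were GTAAACA (forkhead factors), ATCAAAG (TCF/LEF factors), CACGTG (the E-box), TATAAA (the TATA box), TTCNNNGAA (STAT factors) and CAAAGTCCA (HNF4). No match of one motif overlapped a match of another. The first *Fetub* window held TATAAA at 31 bases before the start, and the second held GTAAACA on the opposite strand at 236 bases. The *Lect2* window held ATCAAAG at 32 bases before the start, and the *Ctsd* window held CACGTG, which reads the same on both strands, at 98 and at 245 bases. TTCNNNGAA and CAAAGTCCA had no match in these windows. Of the 32851 windows of this length in the table, 3.17% held GTAAACA, 3.21% ATCAAAG, 6.02% CACGTG, 12.4% TATAAA, 7.02% TTCNNNGAA and 0.384% CAAAGTCCA. The motifs were chosen after the windows had been read, and these matches describe the letters of the windows only.

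Between 50.12% and 57.44% of probes were well above background on an array, and no spot was saturated. The 10 hepatocyte markers, among them *Alb* and *Apob*, were above background on every array, with a summed signal between 2005000 and 2227000. The *Pik3ca* probe was not lower in p110αhep-/- than in p110αhep+/+ mice. It was higher by 0.39 on the log2 scale in fed mice on CTRL diet and by 0.58 in fed mice on HFD (limma adjusted p = 0.000402 and 2.79e-07). In fasted mice the probe was higher by 0.25 on HFD (limma adjusted p = 0.0177) and by 0.07 on CTRL diet, which did not pass (limma adjusted p = 0.534). Its log2 level in fed mice on CTRL diet was 13.02 to 13.33 (median 13.26) against 12.79 to 13.09 (median 12.87), so it gave no check of the deletion and the genotype labels were taken as given. In whole liver, fewer cells of a type and less RNA per cell cannot be told apart. Levels are normalized log2 intensities, and log2 fold changes come from limma, where arrays carry weights, so they can differ slightly from the difference between plain group means. The p-values measure the spread between the mice of a group. A probe passed when its limma p, adjusted by Benjamini–Hochberg over all probes, was at most 0.05.

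**Figure D1:**
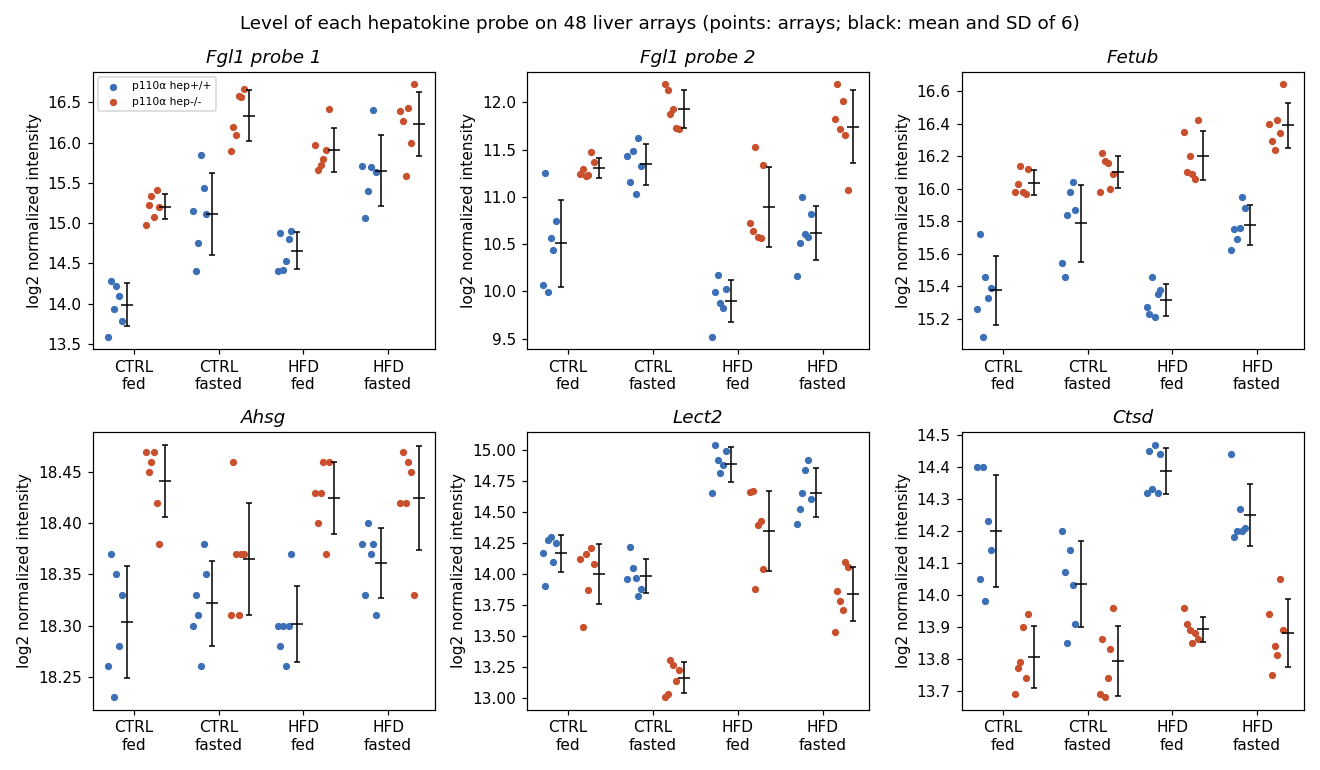
Normalized log2 intensity of the 6 probes (1 panel each) in the 8 groups, with p110αhep+/+ in blue and p110αhep-/- in red, a point for each array and black marks for the mean and SD of 6 arrays. The vertical axes differ between panels: *Fgl1* probe 1 spanned 13.98 to 16.33 over the group means and *Ahsg* 18.3 to 18.44.

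Genotype was the comparison in which most members passed. In p110αhep-/- mice, *Fgl1* and *Fetub* were higher and *Ctsd* was lower in all 4 settings of diet and nutritional state. *Lect2* was lower in 3 of them, and *Ahsg* was slightly higher in fed mice. Of the 5 members, 4 passed in fed mice on CTRL diet, 4 in fasted mice on CTRL diet, 5 in fed mice on HFD and 4 in fasted mice on HFD. Over all genes, 21.7%, 24.8%, 33% and 36.8% passed in the same comparisons. The median log2 fold change of the members was 0.15, 0.04, 0.12 and 0.06, beside 0.02, 0.01, 0.03 and 0.03 for all genes, since the members moved in both directions. Higher in p110αhep-/- mice were 3, 2, 3 and 2 members (11%, 12.5%, 16.7% and 19.1% of all genes), and lower were 1, 2, 2 and 2 (10.6%, 12.3%, 16.4% and 17.7%). A fold above 1.5 as well was met by 2, 2, 2 and 3 members, beside 3.73%, 3.23%, 6.23% and 6.55% of all genes. Over all comparisons, 49 values of member probes passed, and 49 had the same sign within each of the 2 washing batches. The batches are parts of the arrays that gave these calls, so the shared sign was largely fixed by the selection. Of the 49 values, 35 passed within the first batch and 28 within the second, each with fewer arrays. Some values differed severalfold between batches, as given below.

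*Fgl1* probe 1 had the widest range of group means, 2.35 on the log2 scale. In fed mice on CTRL diet its level was 14.98 to 15.41 (median 15.21) in p110αhep-/- and 13.59 to 14.28 (median 14.02) in p110αhep+/+ mice. No array of one genotype reached the range of the other, and the log2 fold change was 1.28 (2.42-fold, SE 0.19, limma adjusted p = 2.49e-06). In fed mice on HFD the levels were 15.66 to 16.41 (median 15.85) and 14.41 to 14.9 (median 14.66), again without overlap (log2 fold change 1.23, SE 0.19, limma adjusted p = 1.94e-06). The difference was 1.15 in fasted mice on CTRL diet (SE 0.18, limma adjusted p = 5.37e-06), where the groups did not overlap either.

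In fasted mice on HFD, *Fgl1* probe 1 read 15.58 to 16.72 (median 16.33) in p110αhep-/- and 15.06 to 16.4 (median 15.67) in p110αhep+/+ mice. These groups overlapped, and the log2 fold change was 0.63 (SE 0.19, limma adjusted p = 0.00963). Without p110αhep+/+ replicate 2 of that group it was 0.47 (adjusted p = 0.0655), and within the second washing batch it was 0.36 (adjusted p = 0.414) against 0.87 within the first. *Fgl1* probe 2 passed in all 4 settings as well, with log2 fold changes of 0.89, 0.61, 0.89 and 1.16 in the order CTRL fed, CTRL fasted, HFD fed and HFD fasted (limma adjusted p between 4.33e-07 and 0.00261). In fasted mice on CTRL diet *Fgl1* probe 2 was 0.45 within the second washing batch and did not pass there (adjusted p = 0.178).

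*Fetub* in fed mice on CTRL diet was at 15.97 to 16.14 (median 16.01) in p110αhep-/- and 15.09 to 15.72 (median 15.36) in p110αhep+/+ mice. The groups were apart, with a log2 fold change of 0.72 (1.65-fold, SE 0.08, limma adjusted p = 1.61e-08). In fed mice on HFD the levels were 16.06 to 16.42 (median 16.15) and 15.21 to 15.46 (median 15.31), with p110αhep-/- mice higher by 0.88 on the log2 scale (SE 0.08, limma adjusted p = 3.86e-11). In fasted mice the difference was 0.3 on CTRL diet (limma adjusted p = 0.00549), where the genotypes overlapped, and 0.62 on HFD (limma adjusted p = 3.58e-07), where they did not. The *Fetub* value in fasted mice on CTRL diet was 0.23 and 0.27 within the washing batches and passed in neither (adjusted p = 0.144 and 0.158).

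*Ahsg*, the neighbour of *Fetub*, varied far less. Its level in fed mice on CTRL diet was 18.38 to 18.47 (median 18.45) in p110αhep-/- and 18.23 to 18.37 (median 18.3) in p110αhep+/+ mice. These ranges did not meet, and the log2 fold change was 0.15 (1.11-fold, SE 0.03, limma adjusted p = 0.000839). In fed mice on HFD it was 0.12 (limma adjusted p = 0.00599), and in fasted mice 0.04 on CTRL diet and 0.06 on HFD, which did not pass. The probe lies at percentile 99.91 of the mean signals, near the top of the distribution that quantile normalization makes equal on all arrays. With median scaling instead, the difference of *Ahsg* in fed mice on CTRL diet was 0.1 and no longer passed (adjusted p = 0.201), while on HFD it rose to 0.26 in fed mice (adjusted p = 0.000335) and to 0.14 in fasted mice, which then passed (adjusted p = 0.0482). Within either washing batch alone *Ahsg* passed in no genotype comparison (-0.01 to 0.16), and the value in fed mice on HFD did not pass when only the groups compared were fitted (0.12, adjusted p = 0.065).

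*Lect2* moved the other way. In fasted mice on CTRL diet its level was 13.01 to 13.31 (median 13.18) in p110αhep-/- and 13.82 to 14.22 (median 13.96) in p110αhep+/+ mice. All arrays of the deleted mice lay below those of the controls (log2 fold change -0.81, 1.75-fold lower, SE 0.1, limma adjusted p = 4.05e-08). In fasted mice on HFD the ranges were 13.53 to 14.1 (median 13.82) and 14.4 to 14.92 (median 14.62), also apart (log2 fold change -0.83, limma adjusted p = 6.74e-08). The difference in fed mice was -0.47 on HFD (limma adjusted p = 0.000429), with overlap, and -0.15 on CTRL diet, which did not pass (95% confidence interval -0.36 to 0.06, limma adjusted p = 0.321).

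*Ctsd* in fed mice on HFD was at 13.85 to 13.96 (median 13.88) in p110αhep-/- and 14.32 to 14.47 (median 14.38) in p110αhep+/+ mice. The groups were apart by more than the range of either (log2 fold change -0.51, 1.43-fold lower, SE 0.06, limma adjusted p = 3.44e-08). The log2 fold change was -0.43 in fed mice on CTRL diet, -0.25 in fasted mice on CTRL diet and -0.37 in fasted mice on HFD (limma adjusted p = 2.97e-06, 0.00225 and 2.01e-05). In fed mice on CTRL diet the *Ctsd* value was -0.31 within the first washing batch, which did not pass (adjusted p = 0.062), and -0.52 within the second (adjusted p = 0.000478). Groups did not overlap in 4, 2, 3 and 3 of the 5 members in the 4 genotype comparisons, beside 6.21%, 10.3%, 13% and 14% of all genes.

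**Figure D2:**
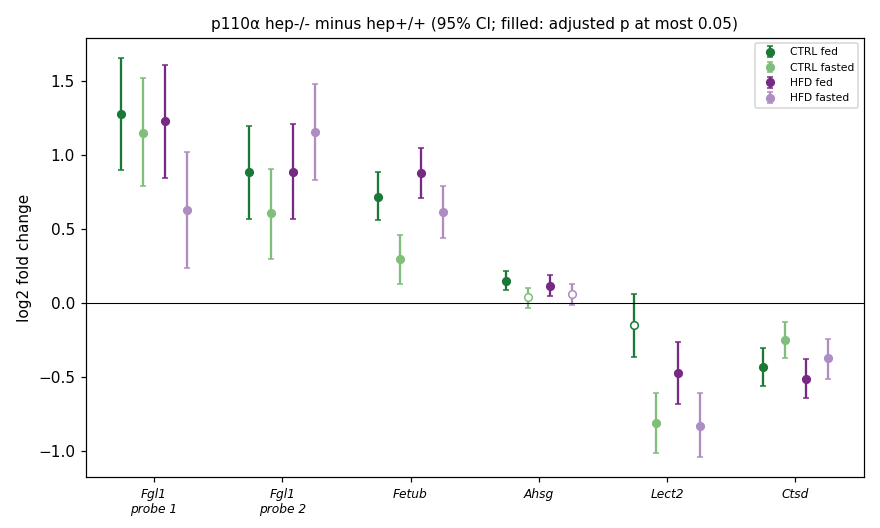
Log2 fold change of p110αhep-/- over p110αhep+/+ mice for each probe in the 4 settings of diet and nutritional state, with 95% confidence intervals and filled points where the adjusted p was at most 0.05. *Fgl1* and *Fetub* lie above 0 in each setting, from 0.3 to 1.28, and *Ctsd* below 0, from -0.51 to -0.25.

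Fasting raised *Fgl1* in 3 of the 4 combinations of genotype and diet by its brighter probe, and raised *Fetub* in p110αhep+/+ mice. It lowered *Lect2* in p110αhep-/- mice and *Ctsd* in p110αhep+/+ mice. Of the 5 members, 3 passed in p110αhep+/+ mice on CTRL diet, 3 on HFD, 3 in p110αhep-/- mice on CTRL diet and 1 on HFD, beside 32.6%, 28.5%, 35.6% and 28.6% of all genes. In the same order, 2, 2, 1 and 0 members were higher in fasted mice (16%, 13.8%, 16.4% and 13.9% of all genes) and 1, 1, 2 and 1 lower (16.6%, 14.7%, 19.2% and 14.7%). With a fold above 1.5 as well, 1, 1, 2 and 1 members passed (5.45%, 4.72%, 7.09% and 5.89%), and fed and fasted groups did not overlap in 1, 2, 2 and 0 members (11.8%, 10.9%, 15.6% and 8.43%).

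On CTRL diet, *Fgl1* probe 1 in p110αhep+/+ mice read 14.4 to 15.84 (median 15.13) fasted and 13.59 to 14.28 (median 14.02) fed. The states did not overlap (log2 fold change 1.18, SE 0.18, limma adjusted p = 2.22e-06). On HFD the change was 0.9 in p110αhep+/+ mice (limma adjusted p = 0.000108), and on CTRL diet it was 1.06 in p110αhep-/- mice (limma adjusted p = 1.62e-05). In p110αhep-/- mice on HFD it was 0.3 and did not pass (95% confidence interval -0.11 to 0.72, limma adjusted p = 0.295), and probe 2 gave 0.98 there (limma adjusted p = 2.69e-05) and the median over both *Fgl1* probes 0.64 (adjusted p = 0.000341). This value of *Fgl1* probe 2 was 1.37 within the first washing batch (adjusted p = 0.000101) and 0.5 within the second, where it did not pass (adjusted p = 0.165).

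*Fetub* rose on fasting by 0.49 in p110αhep+/+ mice on CTRL diet (limma adjusted p = 6.87e-06) and by 0.45 on HFD (limma adjusted p = 1.85e-05). The *Fetub* value on CTRL diet was 0.36 within the first washing batch, which did not pass (adjusted p = 0.0519), and 0.65 within the second, which did (adjusted p = 0.000277). In p110αhep-/- mice the values were 0.06 and 0.19 and did not pass (limma adjusted p = 0.615 and 0.123). These depended on the scaling. With the processed signal scaled to the 75th percentile, *Fetub* passed in p110αhep-/- mice at 0.22 on CTRL diet (adjusted p = 0.0485) and at 0.31 on HFD (adjusted p = 0.0152), and with median scaling at 0.32 on HFD (adjusted p = 0.0121). For *Lect2* the order was the other one, with -0.87 in p110αhep-/- mice on CTRL diet (limma adjusted p = 4.49e-09) and -0.59 on HFD (limma adjusted p = 8.96e-05), beside -0.21 and -0.23 in p110αhep+/+ mice, which did not pass (limma adjusted p = 0.107 and 0.0744). The *Lect2* value in p110αhep+/+ mice on HFD did pass within the first washing batch (-0.35, adjusted p = 0.0376) and without HFD fasted replicate 4 or 5 (-0.28 and -0.27, adjusted p = 0.0435 and 0.0391). In p110αhep-/- mice on HFD the *Lect2* value did not pass within the second batch (-0.47, adjusted p = 0.0738). *Ctsd* fell by 0.22 in p110αhep+/+ mice on CTRL diet (limma adjusted p = 0.00584) and by 0.16 on HFD (limma adjusted p = 0.0407). On CTRL diet the *Ctsd* value was -0.05 within the first washing batch (adjusted p = 0.811) and -0.35 within the second (adjusted p = 0.00188), and on HFD it was -0.15 and -0.13 and passed in neither (adjusted p = 0.415 and 0.284). Neither call on *Ctsd* held under median scaling (-0.09 and -0.05, adjusted p = 0.248 and 0.521), and the one on HFD was also lost when any of 8 single arrays was left out (-0.17 to -0.14). Of 15 alternatives to the processing, the *Ctsd* call on CTRL diet passed in 10 and that on HFD in 6. *Ahsg* passed in p110αhep-/- mice on CTRL diet only, at -0.08 (limma adjusted p = 0.0457), which was lost when any of 6 single arrays was left out (-0.08 to -0.07), and its sign turned to 0.04 under median scaling. Within the washing batches it was -0.09 in each and passed in neither (adjusted p = 0.16 and 0.328). With median scaling *Ahsg* passed in p110αhep+/+ mice on HFD (0.14, adjusted p = 0.037).

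**Figure D3:**
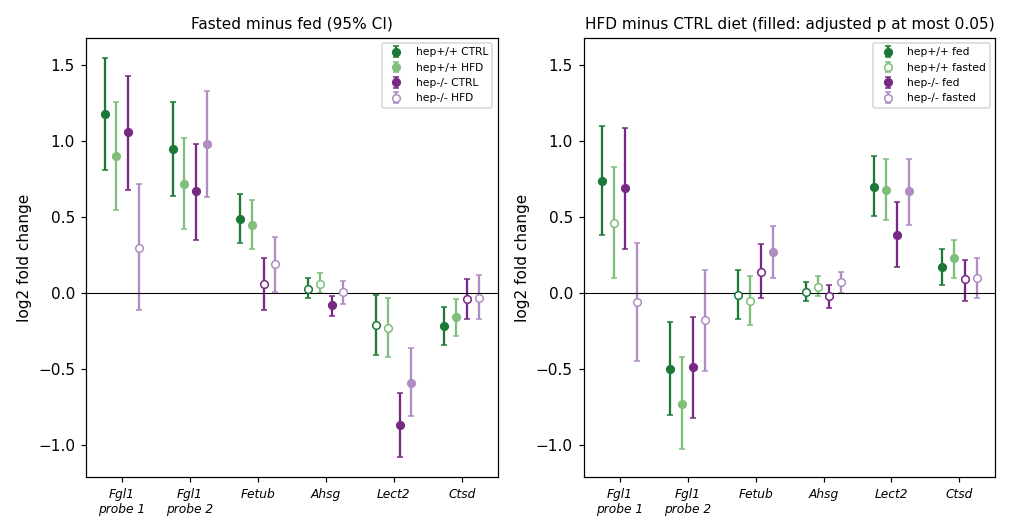
Log2 fold change of fasted over fed mice (left) and of HFD over CTRL diet (right) for each probe, in the 4 combinations named in each key, with 95% confidence intervals and filled points where the adjusted p was at most 0.05. The 2 *Fgl1* probes lie on the same side of 0 for fasting and on opposite sides for the diet in fed mice (0.74 and -0.5 in p110αhep+/+ mice).

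The difference between genotypes in their response to fasting was itself tested. On CTRL diet it passed for 2 of the 5 members, *Fetub* at -0.43 (SE 0.12, limma adjusted p = 0.0266) and *Lect2* at -0.66 (SE 0.14, limma adjusted p = 0.00536), beside 3.99% of all genes (2.23% in this direction). Here a negative value means that the fasted minus fed difference was lower in p110αhep-/- mice. On HFD the values had the same sign, -0.26 for *Fetub* and -0.36 for *Lect2*, and did not pass (limma adjusted p = 0.251 and 0.192). No member passed for genotype by diet in fed or fasted mice (2.95% and 5.07% of all genes), genotype by fasting on HFD (3.43%), or diet by fasting in either genotype (2.37% and 8.02%), all from limma. At an unadjusted p under 0.05 the counts were 1, 1, 3, 0 and 1, beside 18.3%, 21.9%, 17.1%, 16.5% and 21.6% of all genes at that threshold, the last being *Fgl1* probe 1 for diet by fasting in p110αhep-/- mice (-0.75, 95% confidence interval -1.31 to -0.19, limma adjusted p = 0.0917). This *Fgl1* value did pass with the slide as a block (-0.8, adjusted p = 0.0469), with the replicate number as a block (-0.77, adjusted p = 0.0436), when only the groups compared were fitted (-0.76, adjusted p = 0.0466) and without p110αhep-/- CTRL fasted replicate 1 (-0.87, adjusted p = 0.0485). *Fetub* passed for genotype by diet in fasted mice without p110αhep+/+ CTRL fasted replicate 2 (0.39, adjusted p = 0.0305).

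The call on *Fetub* rested on few arrays. It no longer passed when 1 of 7 single arrays was left out (p110αhep+/+ CTRL fed replicates 1 and 3, p110αhep+/+ CTRL fasted replicates 4 and 5, p110αhep-/- CTRL fed replicates 3 and 6, p110αhep-/- CTRL fasted replicate 1), with values of -0.41 to -0.36 and adjusted p of 0.0505 to 0.0729. Within the washing batches it was -0.44 and -0.51, and neither passed. The *Fetub* call was also lost with no filter on dim probes (-0.4, adjusted p = 0.115), with no array weights (-0.35, adjusted p = 0.141) and when only the groups compared were fitted (-0.43, adjusted p = 0.069). *Lect2* passed without any single array, but was -0.95 within the first washing batch (adjusted p = 0.00419) and -0.32 within the second (adjusted p = 0.678).

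**Figure D4:**
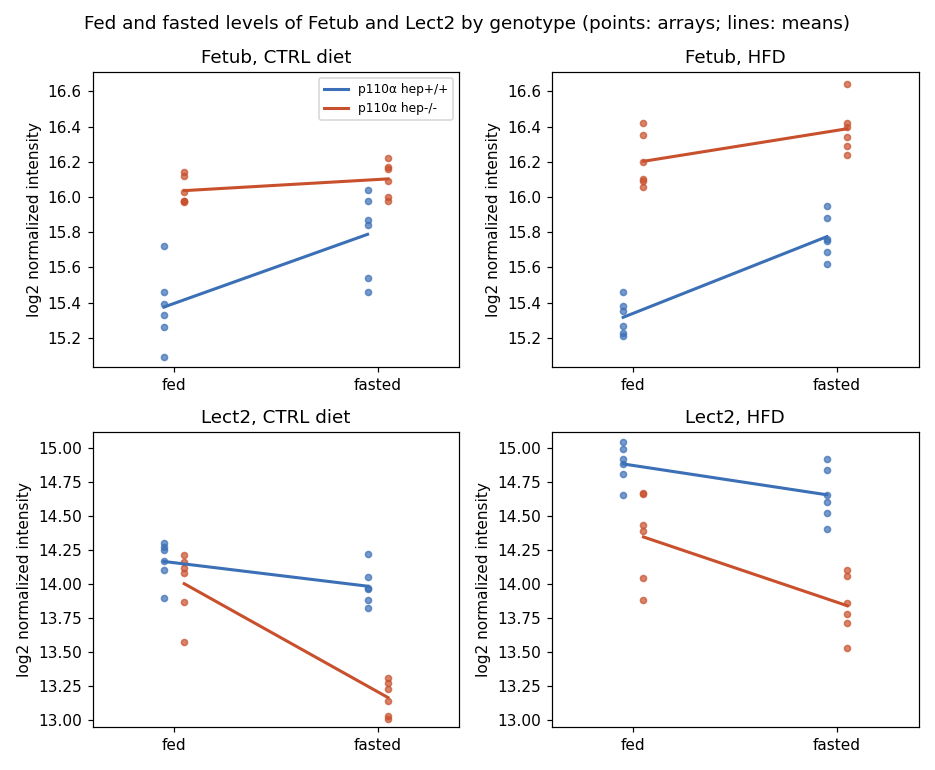
Normalized log2 intensity of *Fetub* (top) and *Lect2* (bottom) in fed and fasted mice on CTRL diet (left) and HFD (right), with a point for each array and lines between group means, p110αhep+/+ in blue and p110αhep-/- in red. On CTRL diet the *Fetub* mean goes from 15.38 to 15.79 in p110αhep+/+ and from 16.04 to 16.1 in p110αhep-/- mice, and the *Lect2* mean from 14.17 to 13.98 and from 14 to 13.17.

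HFD raised *Lect2* in all 4 combinations of genotype and nutritional state, and in p110αhep-/- mice neither call passed within the second washing batch. Its level in fed p110αhep+/+ mice was 14.65 to 15.04 (median 14.9) on HFD and 13.9 to 14.3 (median 14.21) on CTRL diet, which do not overlap (log2 fold change 0.7, SE 0.1, limma adjusted p = 9.57e-07). The change of *Lect2* was 0.68 in fasted p110αhep+/+ mice, 0.38 in fed p110αhep-/- mice and 0.67 in fasted p110αhep-/- mice (limma adjusted p = 4.99e-06, 0.0136 and 2.69e-05). Without p110αhep-/- HFD fed replicate 2 the value in fed p110αhep-/- mice was 0.29 (adjusted p = 0.129), and it was also lost when only the groups compared were fitted (0.39, adjusted p = 0.0903). Within the washing batches this *Lect2* value was 0.33 (adjusted p = 0.0313) and 0.34 (adjusted p = 0.418). In fasted p110αhep-/- mice it was 0.83 (adjusted p = 0.00073) and 0.5 (adjusted p = 0.0735). Of the 5 members, 3 passed in fed p110αhep+/+ mice, 2 in fasted p110αhep+/+ mice, 2 in fed p110αhep-/- mice and 2 in fasted p110αhep-/- mice, beside 24%, 16.1%, 12.3% and 10.9% of all genes. By the brighter probe these were all higher on HFD, as were 12.4%, 9.01%, 5.88% and 5.66% of all genes, while 11.6%, 7.04%, 6.43% and 5.19% were lower. In fed mice the count includes *Fgl1* by probe 1, whereas its probe 2 passed in the opposite direction. With a fold above 1.5 as well, 2, 1, 1 and 1 members passed (3.74%, 2.83%, 2.33% and 1.89%), and the diets did not overlap in 2, 1, 1 and 2 members (9.51%, 5.86%, 3.9% and 4.1%).

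*Ctsd* was higher on HFD in p110αhep+/+ mice by 0.17 fed and 0.23 fasted (limma adjusted p = 0.0407 and 0.00995), and neither passed under median scaling (0.11 and 0.15). Within the washing batches the *Ctsd* value in fed mice was 0.31 and 0.03, and neither passed (adjusted p = 0.0736 and 0.884), and in fasted mice it was 0.21 and 0.24 and passed in neither (adjusted p = 0.273 and 0.0596). The call in fed mice was also lost without any of 7 single arrays (0.13 to 0.16) and that in fasted mice without p110αhep+/+ CTRL fasted replicate 3 (0.18, adjusted p = 0.0597). Of 15 alternatives to the processing, the *Ctsd* call in fed mice passed in 6 and that in fasted mice in 11. *Fetub* passed in fasted p110αhep-/- mice only, at 0.27 (limma adjusted p = 0.0365), which also did not pass under median scaling (0.16) or without any of 7 single arrays (0.22 to 0.28). Within the washing batches it was 0.32 and 0.23, and neither passed (adjusted p = 0.155 and 0.31). *Ahsg* did not pass in any of the 4 comparisons, with values from -0.02 to 0.07, and in fed p110αhep+/+ mice it was -0.15 under median scaling (adjusted p = 0.0264).

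The 2 *Fgl1* probes disagreed on the diet in fed mice, where both passed with opposite signs. Probe 1 was higher on HFD by 0.74 in fed p110αhep+/+ mice (limma adjusted p = 0.00225) and by 0.69 in fed p110αhep-/- mice (limma adjusted p = 0.0156), or 0.59 without p110αhep-/- HFD fed replicate 6 (adjusted p = 0.0526). With the median over the *Fgl1* probes, the values were 0.13 and 0.1 and did not pass (adjusted p = 0.479 and 0.724). Probe 2 was lower by 0.5 in the first (log2 fold change -0.5, limma adjusted p = 0.0138), by 0.73 in fasted p110αhep+/+ mice (-0.73, limma adjusted p = 0.000789) and by 0.49 in fed p110αhep-/- mice (-0.49, limma adjusted p = 0.0462). In fasted p110αhep+/+ mice *Fgl1* probe 1 was at 0.46 and did not pass (limma adjusted p = 0.079). It did pass with the replicate number as a block (0.51, adjusted p = 0.0322) and without 1 of 3 single arrays (p110αhep+/+ CTRL fasted replicate 4, 0.62, adjusted p = 0.0145, p110αhep+/+ HFD fasted replicate 2, 0.62, adjusted p = 0.0214, and p110αhep+/+ CTRL fasted replicate 5, 0.56, adjusted p = 0.0496). In fasted p110αhep-/- mice the probes read -0.06 and -0.18, and neither passed (limma adjusted p = 0.899 and 0.565). The probe 2 call on fed p110αhep-/- mice was lost with no array weights (-0.41, adjusted p = 0.133) and without any of 10 single arrays (-0.51 to -0.42), and that on fed p110αhep+/+ mice without p110αhep+/+ CTRL fed replicate 6 (-0.41, adjusted p = 0.0588). Within the second washing batch alone they were -0.2 and -0.21 and did not pass, beside -0.63 and -0.81 within the first, which did. *Fgl1* probe 1 in fed p110αhep+/+ mice was 0.44 and 0.92 within the batches, and neither passed (adjusted p = 0.284 and 0.0506), and in fed p110αhep-/- mice it was 0.62 and 0.85, of which neither passed (adjusted p = 0.0632 and 0.236). Over 48 arrays the probes correlated with Pearson's r of 0.59 (Spearman's rho 0.6), and after removal of the group means with r of 0.02, a description of arrays that share their groups. No direction of *Fgl1* on HFD is therefore given for the gene as a whole, and the count of members uses the brighter probe 1.

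**Figure D5:**
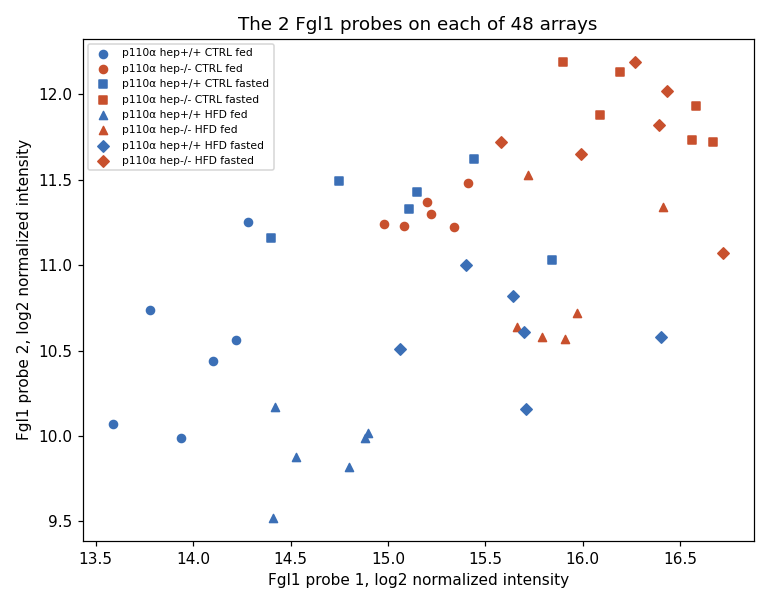
Normalized log2 intensity of *Fgl1* probe 2 (vertical) against probe 1 (horizontal) on each of 48 arrays, with colour for genotype and marker for diet and nutritional state. Fed p110αhep+/+ mice on HFD lie to the right of those on CTRL diet (means 14.66 and 13.98 for probe 1) and below them (means 9.9 and 10.51 for probe 2).

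In the order of group means, *Fgl1* probe 1 and probe 2 were highest in fasted p110αhep-/- mice on CTRL diet (16.33 and 11.93). Probe 1 was lowest in fed p110αhep+/+ mice on CTRL diet (13.98) and probe 2 in fed p110αhep+/+ mice on HFD (9.9). Of 7 neighbouring steps in the order, 2 exceeded the larger SD of the pair for each *Fgl1* probe, 3 for *Fetub*, 1 for *Ahsg*, 2 for *Lect2* and 2 for *Ctsd*. The 4 p110αhep-/- groups held the 4 highest means of *Fetub*, from 16.39 to 16.04, and the step down to the first p110αhep+/+ group (0.25) exceeded the larger SD (0.24). For *Ctsd* they held the 4 lowest means, 13.89 to 13.79, below the lowest p110αhep+/+ group at 14.03. *Lect2* ran from 14.88 in fed p110αhep+/+ mice on HFD to 13.17 in fasted p110αhep-/- mice on CTRL diet, a range of 1.71.

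The genes with the most similar profile over the 48 arrays were described by Pearson's r, over arrays that share groups, slides and normalization. They were *Itih3* and *Pros1* (both 0.88) and *Krtap11-1* (0.86) for *Fgl1*. For *Fetub* they were *Nkd2* and *Igfbp2* (both 0.9) and *Hrg* (0.89), which lies next to *Fetub*. For *Ahsg* they were *Scarb1* (0.73), *Fetub* and *Notum* (both 0.7), with r of 0.1, 0.24 and -0.02 after removal of the group means. For *Lect2* they were *Tmem14a* (0.9), *Gstt1* and *Sytl4* (both 0.88), and for *Ctsd* *Atox1* and *Ugdh* (both 0.92) and *Acyp2* (0.9). After removal of the group means, r was 0.41 to 0.69 for the genes named for members other than *Ahsg*. Among the members, *Fgl1* and *Fetub* had r of 0.83, *Lect2* and *Ctsd* 0.68, and *Fetub* and *Ctsd* -0.78. After removal of the group means these were 0.57, 0.07 and -0.33.

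Related genes were read in fed mice on HFD, the comparison of genotypes in which all 5 members passed. In this comparison 33% of all genes passed, 16.7% higher and 16.4% lower, and counts of lists in this comparison are read against these shares. Of 24 other hepatokines kept, 6 were higher and 7 lower in p110αhep-/- mice, with a median log2 fold change of -0.09 beside 0.03 for all genes. The largest changes were in *Igfbp2* (3.34, limma adjusted p = 5.79e-18), which binds insulin-like growth factors, *Enho* (2.66, limma adjusted p = 8.4e-10), which encodes adropin, and *Gpnmb* (-1.46, limma adjusted p = 1.39e-07). The mean log2 level of *Gpnmb* was low, at 5.64. Of 10 genes of the cystatin superfamily or of the region around *Ahsg* and *Fetub* on chromosome 16, 4 were higher and 5 lower. A gene listed for its place need not be related to cystatins. *Hrg*, which encodes histidine-rich glycoprotein, was higher by 0.71 on the log2 scale (limma adjusted p = 2.66e-10), and *Rfc4* and *St6gal1* were at -0.6 and -0.5.

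Of 12 genes with a fibrinogen-related domain like that of *Fgl1*, 5 were higher and 4 lower, among them *Fcna* (0.77), *Fga* (0.75) and *Fgb* (0.47). Of 16 receptors, partners and targets of the members, 4 were higher and 3 lower. *Lrp1* (0.63), *Met* (0.54), whose product binds LECT2, and *Lag3* (0.44, at a low mean log2 level of 6.15) led this list. Of 22 genes of the acute phase response, 10 were higher and 10 lower, with *Hamp*, the gene of hepcidin, at -6 (SE 1.16, limma adjusted p = 8.74e-05), *Socs3* at 1.5 and *Lcn2* at -1.38. Of 7 negative acute phase proteins 1 was higher, *Serpina6* (0.42), and 1 lower, *Ttr* (-0.18).

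*Ctsd* was set beside 37 lysosomal hydrolases and membrane proteins, of which 6 were higher and 14 lower in p110αhep-/- mice, with a median of -0.06. *Grn* (-1.37, SE 0.52, limma adjusted p = 0.0403), *Cd63* (-0.96) and *Lipa* (-0.53), the lysosomal acid lipase, changed most. *Lect2* was set beside 16 β-catenin and pericentral genes, of which 8 were higher and 2 lower, with a median of 0.29, and the largest changes were in *Cyp1a2* (1.31), *Slc1a2* (0.9) and *Tbx3* (0.79). The same list had 6 higher and 2 lower in fasted mice on HFD (median 0.13), 3 higher and 1 lower in fed mice on CTRL diet (median 0.04), and 1 higher and 2 lower in fasted mice on CTRL diet (median 0). The lysosomal list had 4 higher and 8 lower, 6 higher and 7 lower, and 2 higher and 11 lower in these comparisons. Of all genes, 36.8%, 21.7% and 24.8% passed there, in the same order. Of 17 transcription factors listed for hepatocytes, 5 were higher and 0 lower by the limma test (7 at an unadjusted p under 0.05). This total is near the 33% of all genes that passed (42.5% at the unadjusted threshold). *Foxa3* (0.88), *Stat3* (0.71) and *Prox1* (0.65) had the largest changes among them.

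Macrophages also hold cathepsin D, and markers of other cells were read in the same comparison. Of 15 Kupffer cell and macrophage markers, none passed by limma (3 at an unadjusted p under 0.05), and their summed signal was 52300 to 98010 in p110αhep-/- and 43500 to 67900 in p110αhep+/+ mice. Of 8 lipid-associated macrophage markers, 1 was higher, *Lpl* (1.39), and 6 lower, led by *Spp1* (-2.22) and *Gpnmb* (-1.46, at a low mean log2 level of 5.64), with summed signals of 7909 to 9715 and 7544 to 21270. Of 6 cholangiocyte markers kept, 5 were lower, led by *Spp1* (-2.22), *Krt19* (-0.89) and *Krt7* (-0.51), and their summed signal was 1007 to 1250 against 2694 to 5536. *Spp1* is in both this list and the one before. Its mean log2 level (10.04) was far above those of *Krt19* (6.41) and *Krt7* (5.78), so it weighs more in the summed signal than these. In p110αhep-/- mice 4 of the 6 markers were above background on all arrays of the group. Of 11 stellate cell and fibroblast markers, 2 were higher and 4 lower, led by *Col1a1* (-1.79), *Col3a1* (-1.22) and *Col1a2* (-1.09). Of 11 endothelial markers 1 was higher and 3 lower, of 9 lymphocyte markers 2 were higher and 1 lower, and of 6 neutrophil and 6 erythroid markers none passed by limma (1 of each at an unadjusted p under 0.05). Of the 10 hepatocyte markers, 2 were higher, *Cps1* (1.36) and *Fgb*, and *Ttr* was lower. *Ctsd* was also higher on HFD in p110αhep+/+ mice. There the lipid-associated macrophage markers had 6 higher and 1 lower in fed mice (median 0.69), and 5 higher and 0 lower in fasted mice (median 0.96). Of the stellate cell and fibroblast markers 6 were higher and 0 lower in both. Of the Kupffer cell and macrophage markers 1 was lower in fed and 1 higher in fasted mice. Of all genes, 24% and 16.1% passed there. In the other genotype comparisons the lipid-associated macrophage markers had 1 higher and 3 lower (CTRL fed), 2 and 1 (CTRL fasted), and 2 and 5 (HFD fasted). In the same order the endothelial markers had 3 higher and 1 lower, 6 and 0, and 9 and 0. Of the neutrophil markers 4 were lower in fasted mice on HFD. Of all genes, 21.7%, 24.8% and 36.8% passed in these comparisons. The part of these markers in the *Ctsd* values was not tested.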

How the data were processed

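Liver RNA of 48 mice was labelled with Cy3 by the authors and hybridized to 1-colour Agilent arrays, 1 array per mouse. The deposited scanner files (Feature Extraction 10.10.1.1) give the intensity of each spot, not normalized. The authors also deposited a table of log2 values, filtered, corrected for the washing bath and quantile normalized, which served as an alternative.

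Median signals were log2 transformed without outlier spots (92 to 151 per array), and repeat spots were averaged. Probes well above background on at least 5 arrays of any group stayed in, which left 30793 of 56605 probes. The washing batch (2 batches, each with all groups) was removed with the group means protected, and arrays were quantile normalized. All arrays were fitted in limma 3.58.1 (statmod 1.5.0, R 4.3.3) with array weights of 0.35 to 1.71. A gene was read by its brightest probe.

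Groups came from the labels. Precision is limited by the 6 arrays in a group. In simulated data for the genotype effect in fed mice on CTRL diet (30793 probes), the fit recovered 90% of 50 genes given a log2 change of 0.5 and 12% of 50 given 0.25, and 3.8% of its calls were false. The simulated noise was normal and independent, without batches, and few genes were changed, whereas 21.7% of genes passed on the arrays. These rates therefore need not hold for the arrays. The members and gene lists were chosen with earlier results of these data known. Named genes were the members, the 3 with the most similar profile, *Pik3ca*, and up to 3 per list with the largest change among those passing in fed mice on HFD. Alternatives were other signals, scalings, filters, treatments of batch, slide, replicate number and weights, the deposited log2 values, the median over probes, and leaving out each array.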

Additional observations from a re-analysis of the deposited data

Results flagged for a closer look

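In 48 sets of 6 arrays (6 probes in 8 groups), 3 held an array apart from the rest, where chance gives about 1 in 20. *Ahsg* in fed p110αhep+/+ mice on HFD had replicate 6 at 18.37, with a gap of 0.681 of the range, and *Ahsg* in fasted p110αhep-/- mice on CTRL diet had replicate 2 at 18.46 (0.637). *Ctsd* in fasted p110αhep+/+ mice on HFD had replicate 1 at 14.44 (0.667). The response to fasting on CTRL diet differed between genotypes, by limma, for *Fetub* (-0.43, adjusted p = 0.0266) and for *Lect2* (-0.66, adjusted p = 0.00536).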

How the results depend on the processing

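Members passed in 10 fasting, 9 HFD, 17 genotype and 2 interaction comparisons. With a fold over 1.5 required as well, these counts were 5, 5, 9 and 1. Within the first washing batch fasting gave 7, HFD 4, genotype 13 and interactions 1, and within the second 7, 2, 13 and 0. Interactions gave 1 with no filter on dim probes and 1 with no array weights. Leaving out single arrays gave 9 to 10, 8 to 10, 16 to 17 and 1 to 3. Of 49 probe values that passed, 35 passed within the first batch and 28 within the second. All 49 had the same sign within both batches, which their selection on the same arrays largely fixed. Fewer arrays enter the fits within a batch. In the other alternatives the cause of a change was not tested.

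The labels do not say whether replicate numbers pair the mice. Arrays with the same number correlated at -0.35 to 0.34 (median 0.01, 168 pairs) after removal of group means, which cannot exclude pairing. The fit of all arrays did not use the replicate number. With it as a block, *Ahsg* on fasting in p110αhep-/- mice on CTRL diet (adjusted p = 0.0808), *Ctsd* on fasting in p110αhep+/+ mice on HFD (0.0872) and *Ctsd* on HFD in fed p110αhep+/+ mice (0.1) no longer passed, *Fgl1* probe 1 passed for HFD in fasted p110αhep+/+ mice (0.51, adjusted p = 0.0322) and for diet by fasting in p110αhep-/- mice (-0.77, adjusted p = 0.0436), and *Fgl1* probe 2 had -0.04 for genotype by diet in fed mice.

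In 67 cases an alternative turned the sign of a log2 value (a gene, then the comparison, hep standing for p110αhep). Of these, 2 had passed, *Ahsg* on fasting in p110αhep-/- mice on CTRL diet under both scalings, and *Ahsg* for HFD in fed p110αhep+/+ mice passed at the turned sign under both. Within the first washing batch, *Fgl1* probe 1 HFD hep-/- fasted was 0.19, *Fgl1* probe 1 genotype by diet fed 0.18, *Fgl1* probe 1 genotype by diet fasted 0.06, *Fgl1* probe 2 genotype by fasting CTRL 0.19, *Fetub* fasting hep-/- CTRL -0.08, *Fetub* diet by fasting hep+/+ 0.15, *Ahsg* fasting hep+/+ CTRL -0.01, *Ahsg* HFD hep+/+ fed -0.04, *Ahsg* genotype by diet fed 0.02, *Lect2* genotype CTRL fed 0, *Lect2* genotype by diet fasted 0.32, *Ctsd* diet by fasting hep+/+ -0.1, *Ctsd* diet by fasting hep-/- -0.01. Within the second, *Fgl1* probe 2 genotype by fasting HFD was -0.23, *Fgl1* probe 2 diet by fasting hep-/- -0.05, *Fetub* HFD hep+/+ fed 0.2, *Fetub* diet by fasting hep-/- -0.06, *Ahsg* fasting hep-/- HFD -0.04, *Ahsg* HFD hep-/- fed 0, *Ahsg* genotype CTRL fasted -0.01, *Ahsg* diet by fasting hep+/+ -0.03, *Lect2* diet by fasting hep+/+ 0.18, *Ctsd* genotype by diet fed 0.04. With the median over probes, *Fgl1* probe 1 HFD hep+/+ fasted was -0.13, *Fgl1* probe 1 genotype by diet fasted 0.02. With median scaling, *Fgl1* probe 2 genotype by diet fed was -0.02, *Ahsg* fasting hep-/- CTRL 0.04, *Ahsg* HFD hep+/+ fed -0.15, *Ahsg* HFD hep+/+ fasted -0.11, *Ahsg* HFD hep-/- fed 0.01, *Ahsg* HFD hep-/- fasted -0.01, *Ahsg* genotype by diet fed 0.16, *Ahsg* diet by fasting hep-/- -0.02, *Lect2* genotype by diet fasted 0.03, *Ctsd* fasting hep-/- CTRL 0.05, *Ctsd* fasting hep-/- HFD 0.03, *Ctsd* diet by fasting hep-/- -0.02. With no array weights, *Fgl1* probe 1 genotype by diet fed was 0.04, *Fetub* diet by fasting hep+/+ 0.04, *Ahsg* fasting hep-/- HFD 0, *Ahsg* HFD hep+/+ fed 0, *Lect2* genotype by diet fasted 0, *Ctsd* diet by fasting hep-/- 0. With no batch correction, *Ahsg* fasting hep-/- HFD was -0.01, *Ctsd* diet by fasting hep-/- 0. With normexp, *Fgl1* probe 2 genotype by diet fed was -0.01, *Ahsg* HFD hep+/+ fed 0, *Lect2* genotype by diet fasted 0.01. With only probes above background on all arrays, *Fgl1* probe 2 genotype by diet fed was -0.01. With the processed signal scaled to the 75th percentile, *Ahsg* fasting hep-/- CTRL was 0.04, *Ahsg* HFD hep+/+ fed -0.17, *Ahsg* HFD hep+/+ fasted -0.13, *Ahsg* HFD hep-/- fed 0.02, *Ahsg* HFD hep-/- fasted -0.01, *Ahsg* genotype by diet fed 0.19, *Ahsg* diet by fasting hep-/- -0.03, *Lect2* genotype by diet fasted 0.08, *Ctsd* fasting hep-/- CTRL 0.05, *Ctsd* fasting hep-/- HFD 0.01, *Ctsd* HFD hep-/- fasted 0, *Ctsd* diet by fasting hep-/- -0.04. With the slide as a block, *Fgl1* probe 1 genotype by diet fed was 0.01, *Fgl1* probe 2 genotype by diet fed -0.02, *Ahsg* fasting hep-/- HFD -0.01, *Ctsd* diet by fasting hep-/- -0.01. With the washing batch as a term, *Ahsg* fasting hep-/- HFD was -0.01. Leaving out single arrays turned the sign of values that had not passed, with the ranges *Fgl1* probe 1 genotype by fasting CTRL -0.26 to 0.04, *Fetub* HFD hep+/+ fasted -0.12 to 0.01, *Fetub* diet by fasting hep+/+ -0.11 to 0.03, *Lect2* genotype by diet fasted -0.07 to 0.06, *Lect2* diet by fasting hep+/+ -0.07 to 0.03, *Fgl1* probe 1 genotype by diet fed -0.15 to 0.04, *Fgl1* probe 2 genotype by diet fed -0.1 to 0.14, *Fetub* HFD hep+/+ fed -0.08 to 0.03, *Ahsg* HFD hep+/+ fed -0.02 to 0.02, *Fgl1* probe 1 HFD hep-/- fasted -0.18 to 0.09, *Ctsd* diet by fasting hep-/- -0.02 to 0.05, *Ahsg* fasting hep-/- HFD -0.01 to 0.02, *Ctsd* fasting hep-/- HFD -0.06 to 0.01.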
